A study of Mus musculus with 8 samples.

Results

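The miRNAs described here are 8 of the mature products of the miR-188, miR-362, miR-500, miR-501 and miR-532 hairpins that share an intron of Clcn5 on the mouse X chromosome. They were taken by name (mmu-miR-532-5p, mmu-miR-532-3p, mmu-miR-188-5p, mmu-miR-362-5p, mmu-miR-362-3p, mmu-miR-501-5p, mmu-miR-501-3p and mmu-miR-500-3p, written without the mouse prefix mmu from here on), and all 8 were present among the 1915 mature miRNA names listed for each library. The study sequenced small RNA from the prefrontal cortex of mice of C57BL/6 background at 12 weeks of age. It compared 4 libraries from Fkbp5 knockout mice (replicates 1, 2, 4 and 5) with 4 libraries from wild-type mice (replicates 1, 2, 3 and 4). The Fkbp5 protein acts with the chaperone Hsp90 and restrains the glucocorticoid receptor. The labels do not say how the knockout allele was made, whether each library is a separate animal, or which sex was used, and p-values therefore reflect only how far these libraries differ, which may be technical. No mRNA was read, so the genotype labels and the level of Clcn5 itself were not checked here.

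Clcn5 encodes ClC-5, a chloride and proton exchanger of endosomes. An intronic miRNA is cut from the host transcript as a hairpin, and Dicer then releases a 5p and a 3p strand, of which usually a single strand is kept in Argonaute and directs the repression of messenger RNAs that pair with its seed (bases 2 to 8). In this locus miR-188 is known from rat hippocampal neurons, where it rises with long-term potentiation and represses neuropilin-2, and miR-501-3p is known from rodent neurons as a repressor of the AMPA receptor subunit GluA1.

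In the GENCODE annotation of GRCm38, the assembly that the mm10 build names, Clcn5 lies on the minus strand at chrX:7153810-7319358, and 5 miRNA genes lie inside it, all on the same strand. In the order of transcription they are Mir532 (chrX:7248402-7248497), Mir188 (chrX:7247989-7248056), Mir362 (chrX:7241982-7242046), Mir501 (chrX:7241243-7241351) and Mir500 (chrX:7237683-7237774). All 5 lie within a span of 10815 bases of a single intron of 103648 bases, and none overlaps a Clcn5 exon. The intron belongs to 3 of the 5 annotated Clcn5 transcripts, and the other 2 begin downstream of the hairpins, at positions 7188714 and 7188673. Mir188 follows Mir532 after 345 bases and Mir501 follows Mir362 after 630 bases, while 5942 bases separate Mir188 from Mir362.

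The mature sequences carry the relationship within the cluster, since members of different hairpins share seeds. RefSeq (GRCm38.p6) gave 7 of the 8 members, and the partner arms of miR-188 and miR-500 are printed beside them because the arm comparisons use them. They are written 5′ to 3′ with the seed in capitals.
miR-532-3p: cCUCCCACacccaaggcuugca
miR-188-5p: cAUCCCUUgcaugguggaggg
miR-188-3p: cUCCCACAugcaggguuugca
miR-362-5p: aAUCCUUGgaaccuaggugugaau
miR-500-5p: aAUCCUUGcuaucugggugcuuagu
miR-501-5p: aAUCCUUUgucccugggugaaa
miR-501-3p: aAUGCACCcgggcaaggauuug
miR-500-3p: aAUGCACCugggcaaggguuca
miR-362-3p: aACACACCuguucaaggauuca
miR-501-3p and miR-500-3p have the same seed and are equal at 18 of 22 positions. Counted from 1 at the 5′ end, with the base of miR-501-3p first, they differ by C9U, A18G, U21C and G22A. miR-362-5p shares its seed with the partner arm miR-500-5p, and the seed of miR-501-5p differs from theirs by its last base (G8U, with the base of miR-362-5p first). The settings with which reads were assigned to such similar names are not given in the sources used here, so the split between miR-501-3p and miR-500-3p is uncertain to that extent.

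The hairpins Mir362, Mir501 and Mir500 are printed with both mature arms in capitals, because their arms begin alike while the arm comparisons below differ between them.
Mir362: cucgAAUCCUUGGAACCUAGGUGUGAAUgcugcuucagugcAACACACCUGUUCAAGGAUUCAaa
Mir501: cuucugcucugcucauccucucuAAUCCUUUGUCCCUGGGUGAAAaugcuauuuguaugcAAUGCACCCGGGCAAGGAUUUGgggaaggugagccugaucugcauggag
Mir500: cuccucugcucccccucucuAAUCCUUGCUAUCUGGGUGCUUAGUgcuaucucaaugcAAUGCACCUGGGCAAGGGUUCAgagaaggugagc
Each of these has a 5p arm that begins with aauccuu and a 3p arm that begins with aa. From the 5′ end, miR-362-3p equals miR-500-3p at 17 of 22 positions and miR-362-5p equals miR-501-5p at 16 of 22.

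The deposited values are whole numbers that the file headers call normalized counts. They summed to between 17728879 and 19776148 in the knockout libraries and to between 16180699 and 21555993 in the wild-type libraries. Because that depth follows an unstated normalization, no counting interval is given. miRNAs of neurons and cortex fixed as a tissue check (6 of 6 found, among them miR-124-3p, miR-128-3p and miR-9-5p) made up 395871 to 470461 per 1000000 of each library's total. Marker lists of other cells were also present. Summed rescaled values of 3 microglia and leukocyte miRNAs ran from 324 to 489.8 in the knockout and from 496 to 626 in wild type, without overlap. Of all single miRNAs tested, 2% had groups without overlap. The separation depended on the rescaling. As parts of each library's total, knockout replicate 2 lay above wild-type replicates 1 and 3, so the groups overlapped. Every other list overlapped between the genotypes. The sums of 3 olfactory and epithelial miRNAs ran from 235 to 1667 in the knockout and from 414 to 3306 in wild type. Those of 3 endothelial and smooth muscle (vascular) miRNAs ran from 51397 to 80953 and from 72400 to 95231. Those of 3 striated muscle miRNAs ran from 13974 to 16197 and from 13524 to 19928. 0 of the marker miRNAs passed the test by genotype. Wild-type replicate 2 had the highest sums of the microglia, olfactory and vascular lists.

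The 8 members, without the partner arms miR-188-3p and miR-500-5p, were together a small part of the cortical miRNA pool and spanned a wide range. The 8 members together made up 0.0149, 0.0204, 0.0195 and 0.0212% of all values in the knockout libraries, against 0.0185, 0.0241, 0.0171 and 0.0202% in the wild-type libraries. The lowest share was in knockout replicate 1, the highest in wild-type replicate 2, and the groups overlapped. miR-532-5p alone held 56.4 ± 3.47% of the members' summed value in the knockout and 60.2 ± 4.43% in wild type (SD, n = 4 each), and miR-501-3p held 25.5 ± 1.38% in the knockout and 22.1 ± 3.52% in wild type. miR-188-5p, the member tied to synaptic plasticity, held 0.283 ± 0.103% in the knockout and 0.260 ± 0.121% in wild type.

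To compare levels, each library was put on a common scale by a trimmed mean of its log ratios to a single reference library. All levels that follow are these rescaled values. The order by mean over the 8 libraries was miR-532-5p (2141 ± 344), miR-501-3p (859.9 ± 59.6), miR-532-3p (232 ± 42.6), miR-362-3p (153 ± 53.5), miR-362-5p (147 ± 32.9), miR-500-3p (61.4 ± 20.9), miR-501-5p (49.4 ± 13.0) and miR-188-5p (9.73 ± 3.25; SD, n = 8 each). These levels placed miR-532-5p at rank 158 and miR-188-5p at rank 596 of the 600 miRNAs abundant enough to test. Neighbours in this order were compared within libraries by two-sided exact sign-flip permutation tests, adjusted over the 7 pairs, on an order taken from the same values. miR-532-5p exceeded miR-501-3p 2.46-fold and miR-501-3p exceeded miR-532-3p 3.75-fold, each in 8 of 8 libraries (exact p = 0.00781, the smallest that 8 libraries allow, adjusted 0.0182). miR-501-5p exceeded miR-188-5p 4.81-fold in 8 of 8 libraries with the same p-values. miR-362-5p exceeded miR-500-3p 2.42-fold in 7 of 8 libraries (exact p = 0.0156, adjusted 0.0273), a call that was lost on leaving out any of the 4 knockout libraries or wild-type replicate 3 (adjusted exact p = 0.0547 each). The other 3 neighbouring pairs did not differ beyond their spread. These were miR-532-3p against miR-362-3p (1.56-fold, higher in 6 of 8, adjusted exact p = 0.0656, and 0.0438 on leaving out wild-type replicate 1 or 2), miR-362-3p against miR-362-5p (1.02-fold, 4 of 8, adjusted exact p = 0.875) and miR-500-3p against miR-501-5p (1.22-fold, 5 of 8, adjusted exact p = 0.319). Levels are values per mature sequence, and the 7 members with a sequence were 21 to 24 bases long. How evenly different sequences were captured in the libraries was not measured. Uneven capture would repeat in every library, so these tests cannot tell it apart from a difference in level.

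**Figure D1:**
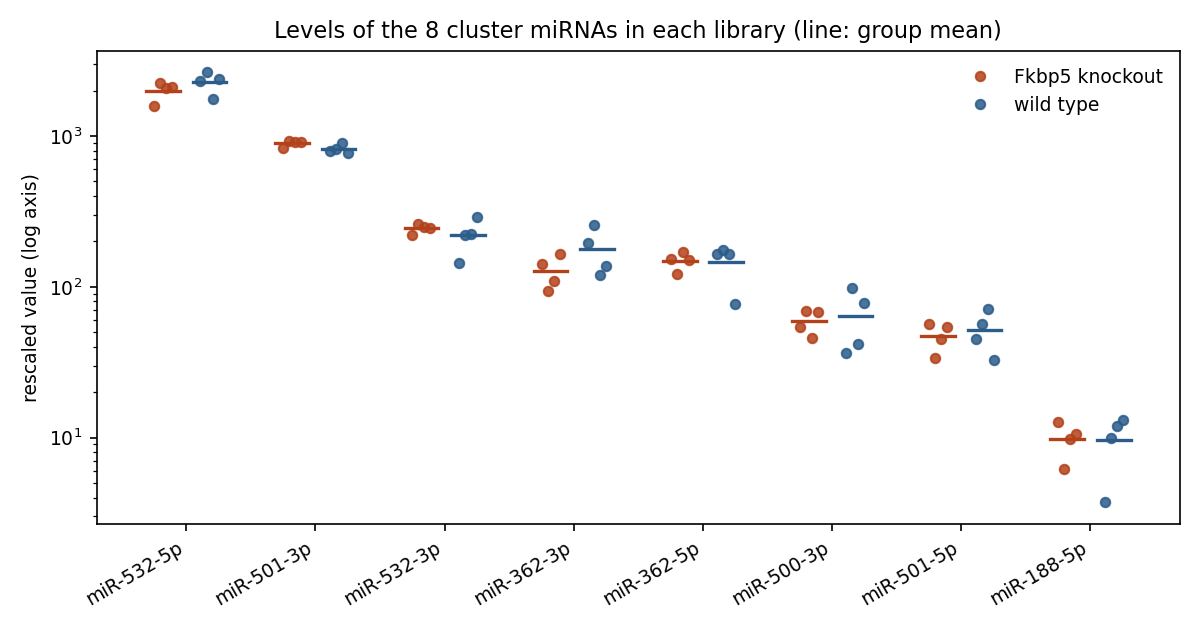
Rescaled values (log axis) of the 8 cluster miRNAs in each of the 4 Fkbp5 knockout and 4 wild-type libraries, one point per library and a line at each group mean. The members run from about 2141 for miR-532-5p to 9.73 for miR-188-5p, and the points of both genotypes overlap for every member.

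Position along the transcript did not order the levels. Mir532 and Mir188 are neighbours at the upstream end of the cluster, yet miR-532-5p averaged 2141 and miR-188-5p 9.73. The third hairpin, Mir362, lay 6.45 kb downstream of the first by its start with both arms near 150, and the fourth, Mir501, gave the second most abundant member. Library-to-library spread differed too. miR-501-3p varied least, with the highest library 1.20-fold above the lowest, while miR-362-3p (2.74-fold), miR-500-3p (2.70-fold) and miR-188-5p (3.50-fold) varied most. Deposited values were 4 to 12 for miR-188-5p and 35 to 119 for miR-500-3p, against 715 to 1029 for miR-501-3p. The part of low values in this spread was not tested.

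**Figure D2:**
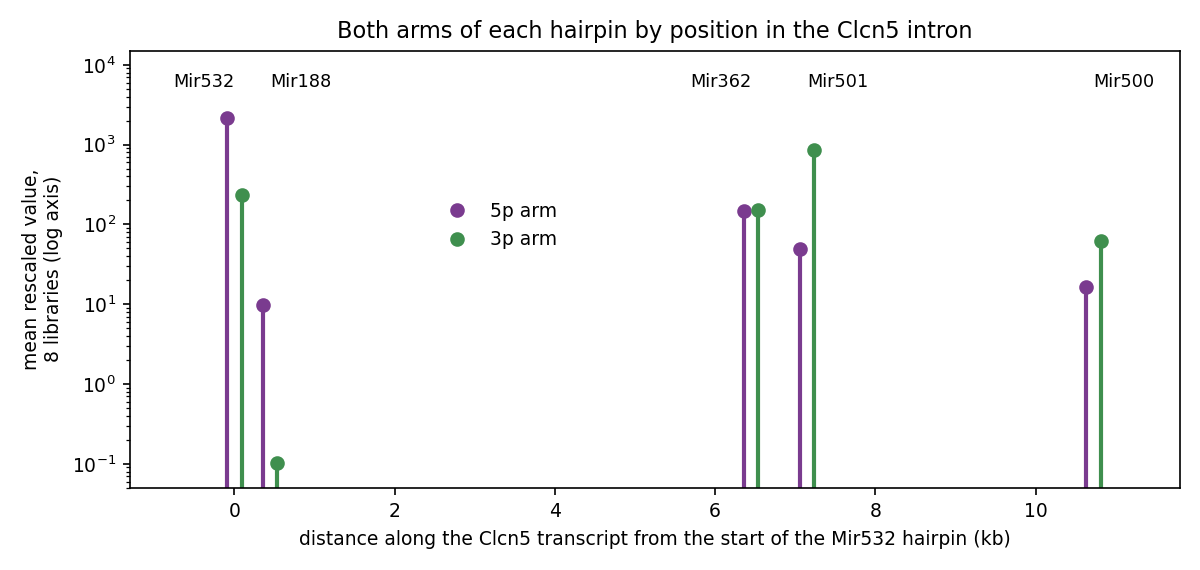
Mean rescaled value over 8 libraries (log axis) of the 5p and 3p arm of each hairpin against its distance in kb along the Clcn5 transcript from the start of Mir532. Mir532 and Mir188 sit 0.441 kb apart with 5p arms at 2141 and 9.73, and the favoured arm turns from 5p at Mir532 to 3p at Mir501 and Mir500.

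The hairpins of the cluster differed in which arm had the higher value. Binding of either strand to Argonaute was not measured, nor was how evenly the arms were captured. At Mir532 the 5p arm dominated, at Mir501 and Mir500 the 3p arm did, and at Mir362 both arms had about equal values. The 5p share of both arms of Mir532 was 87.7, 89.6, 89.3 and 89.6% in the knockout libraries, against 94.1, 92.3, 88.7 and 89.1% in the wild-type libraries. That of Mir501 was 6.30, 3.50, 4.70 and 5.60% in the knockout libraries, against 5.35, 6.47, 7.41 and 4.03% in the wild-type libraries. Mir501, whose 3p strand is the repressor of GluA1 named above, held the large majority of its value in that strand in every library. As mean log2 ratios of 5p to 3p, with 0.5 added to each arm, Mir532 stood at 3.21 ± 0.39 and Mir501 at -4.15 ± 0.38 (SD, n = 8), in the same direction in 8 of 8 libraries (two-sided exact sign-flip permutation p = 0.00781 each, adjusted 0.00977 over the 5 hairpins and 0.00881 over the 141 hairpins whose arms each averaged 20 or more). A difference between arms that passed this test was common, at 94.3% of those 141 hairpins.

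Mir500 and Mir501 favoured the same arm to unequal degrees. The 5p share of Mir500 was 23.0, 8.22, 33.8 and 19.8% in the knockout libraries, against 30.4, 15.0, 35.2 and 14.3% in the wild-type libraries. Its mean log2 ratio was -1.89 ± 0.88 (SD, n = 8), with 3p higher in 8 of 8 libraries (two-sided exact permutation p = 0.00781, adjusted 0.00977 over the 5 hairpins). The partner arm miR-500-5p averaged 15.6 ± 7.13 in the knockout and 17.2 ± 4.06 in wild type, too low for the test over 141 hairpins. Of Mir188, the partner arm miR-188-3p was listed at 0 in 7 libraries and at a deposited value of 1 in wild-type replicate 2, against deposited values of 4 to 12 for miR-188-5p, so no fold is given. The 5p arm was the higher in 8 of 8 libraries (two-sided exact permutation p = 0.00781, adjusted 0.00977 over the 5 hairpins), a ratio that rests on the 0.5 added to a partner at 0. With the partner at 0 or 1 and miR-188-5p at 4 to 12, the test could give no other p.

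At Mir362 neither arm was favoured over the libraries together. The 5p share was 51.6, 56.2, 60.8 and 47.5% in the knockout libraries, against 45.6, 40.5, 58.0 and 35.9% in the wild-type libraries. The mean log2 ratio was -0.030 ± 0.51 (SD, n = 8), with 5p higher in 4 of 8 libraries (two-sided exact permutation p = 0.875). Mir362 stood apart in this from most hairpins as a description: over the 141 hairpins the median absolute log2 ratio was 3.37, and that of 1 hairpin was smaller than that of Mir362.

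**Figure D3:**
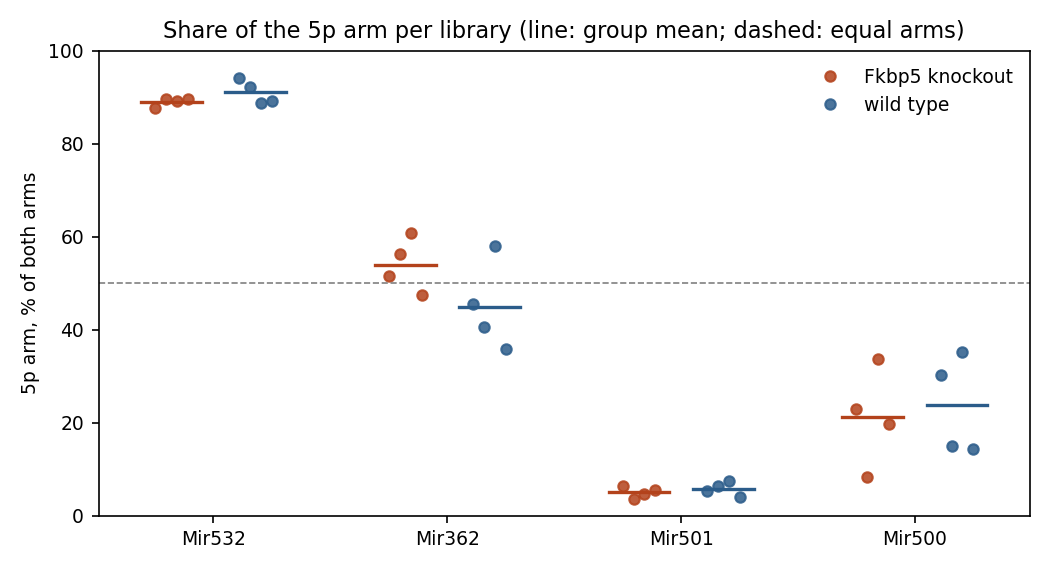
Share of the 5p arm in the sum of both arms (percent) for 4 hairpins, one point per library and a line at each group mean, with Fkbp5 knockout left of wild type and a dashed line at equal arms. Mir532 lies between 87.7 and 94.1%, Mir501 between 3.50 and 7.41%, and Mir362 straddles the dashed line in both genotypes.

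The genotype comparison asks whether loss of Fkbp5 changes the cluster in cortex, and no member passed it. By limma on log2(value + 1), with Benjamini-Hochberg adjustment over all 600 miRNAs tested, 0 of 8 members passed 0.05 (0% of all tested passed) and 0 of 8 had an unadjusted p under 0.05 (4.33% of all tested had). The groups did not overlap for 0 of 8 members (2% of all tested). Of the members 4 were higher and 4 lower by mean log2 value in the knockout (47% of all tested were lower), and their log2 fold changes had a median of 0.039 and a median size of 0.11 (0.011 and 0.11 over all tested). Adjusted p was 0.9995 for each of the 8 by limma.

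The abundant member of each of the leading hairpins was measured most tightly. miR-532-5p was at 1571, 2252, 2083 and 2105 in the knockout libraries, against 2322, 2649, 1768 and 2377 in the wild-type libraries. It averaged 2003 ± 297 in the knockout and 2279 ± 369 in wild type (SD, n = 4 each), and the log2 fold change was -0.18 ± 0.15 (SE). Knockout replicate 1 and wild-type replicate 3 were the low libraries, and the groups overlapped. The log2 fold change was -0.071 without knockout replicate 1 and -0.29 without wild-type replicate 3. Its other arm, miR-532-3p, was at 221, 261, 250.0 and 245 in the knockout libraries, against 144, 221, 225 and 290.3 in the wild-type libraries, a log2 fold change of 0.19 ± 0.19. The 4 knockout libraries lay inside the range of the wild-type ones, of which replicate 1 was lowest, and without it the log2 fold change was 0.0068.

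miR-501-3p was at 839, 933, 911 and 908 in the knockout libraries, against 791, 824, 897 and 777 in the wild-type libraries. It averaged 898 ± 40.8 in the knockout and 822 ± 53.3 in wild type (SD, n = 4 each), and the log2 fold change was 0.13 ± 0.11 (SE). Of the knockout libraries 3 lay above every wild-type library, and the groups overlapped through knockout replicate 1 and wild-type replicate 3. The 95% interval ran from 0.925-fold to 1.29-fold, the narrowest of the 8 members. Its passenger strand miR-501-5p was at 56.4, 33.8, 44.9 and 53.8 in the knockout libraries, against 44.7, 57.0, 71.7 and 32.6 in the wild-type libraries (log2 fold change -0.092 ± 0.26), with full overlap of the ranges.

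miR-362-3p had the largest difference and the smallest unadjusted p of the members (0.111 by limma). It was at 143, 94.3, 109 and 166 in the knockout libraries, against 197, 259, 119.6 and 138 in the wild-type libraries. It averaged 128 ± 32.4 in the knockout and 178 ± 62.8 in wild type (SD, n = 4 each), and the log2 fold change was -0.44 ± 0.26 (SE). The high wild-type values were those of replicates 1 and 2, and the groups overlapped. Without wild-type replicate 2, which also had the highest olfactory, microglial and vascular marker sums, the log2 fold change was -0.24, and the part of those cells in the difference was not tested. The 5p arm of the same hairpin, miR-362-5p, was at 152, 121, 169.9 and 150.1 in the knockout libraries, against 165, 176, 165 and 77.2 in the wild-type libraries (log2 fold change 0.084 ± 0.25). Wild-type replicate 4 was low here, and without it the log2 fold change was -0.20.

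The less abundant members had wide intervals. miR-500-3p was at 54.1, 68.7, 45.9 and 68.0 in the knockout libraries, against 36.3, 98.3, 41.8 and 78.3 in the wild-type libraries (log2 fold change -0.0055 ± 0.31), so the knockout libraries lay inside the wild-type range. Its sign changed with the scaling between libraries. miR-188-5p was at 12.7, 6.15, 9.76 and 10.6 in the knockout libraries, against 3.73, 9.91, 12.0 and 13.0 in the wild-type libraries (log2 fold change 0.094 ± 0.40). Its 95% interval ran from 0.580-fold to 1.96-fold. For 7 of the 8 members the interval held a 2-fold change in neither direction, the exception being miR-362-3p (0.499-fold to 1.09-fold). That count was not taken over all 600 tested miRNAs, so it is not read as particular to the cluster. For miR-188-5p an interval inside 2-fold rests on the 1 added before the log, which shrinks changes at so low a level. Its log2 fold change was 0.11 with 0.5 added and 0.047 with 5 added, so a 2-fold change of miR-188-5p is not excluded. miR-188-5p reached the minimum of 10 for testing in exactly 4 libraries, 2 of each genotype.

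**Figure D4:**
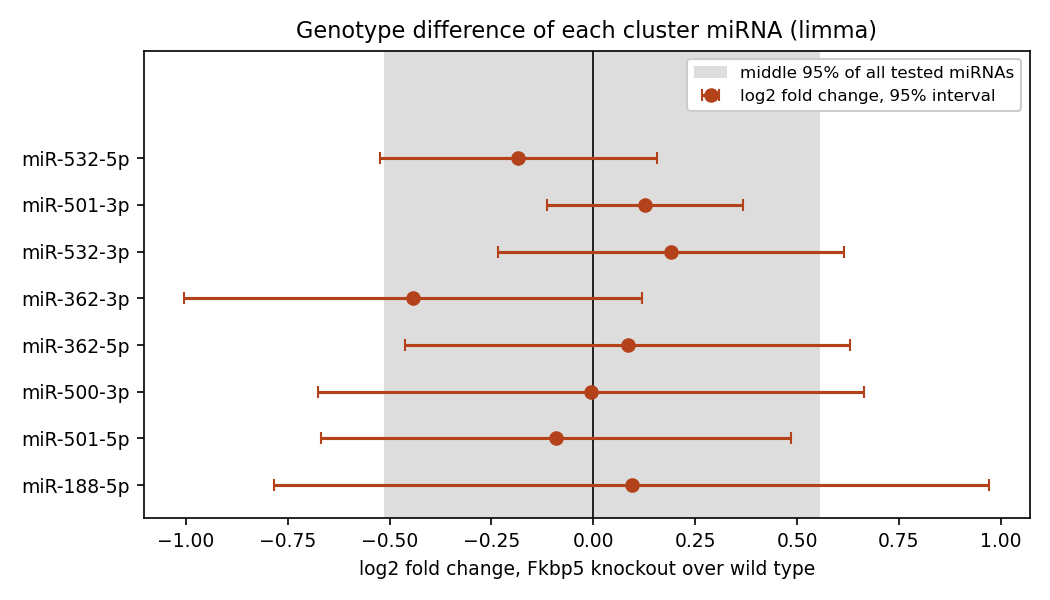
Log2 fold change of each member, Fkbp5 knockout over wild type, with its 95% interval from limma, against the middle 95% of the log2 fold changes of all 600 tested miRNAs (grey, from -0.51 to 0.56). Every interval crosses 0 and every estimate lies inside the grey band.

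Whether the balance of arms differed in the knockout was tested through the log2 ratio of 5p to 3p in a limma fit of all 141 hairpins. 0 of the 3 cluster hairpins in that fit passed 0.05 (0% of all 141), and 0 had an unadjusted p under 0.05 (2.13% of all). The log2 ratio of Mir362 was 0.23 ± 0.34 in the knockout and -0.29 ± 0.56 in wild type (SD, n = 4 each), a difference of 0.53 ± 0.27 (SE; unadjusted p = 0.0703, adjusted p = 0.975 by limma) that ranked 5 of 141 by p. In the knockout 3 of 4 libraries held more 5p than 3p, against 1 of 4 in wild type. Leaving out wild-type replicate 4 gave a difference of 0.35, and leaving out wild-type replicate 3 gave 0.78. Mir532 stood at 3.02 ± 0.13 in the knockout and 3.40 ± 0.49 in wild type (difference -0.37 ± 0.23, adjusted p = 0.975 by limma), and wild-type replicates 1 and 2 were the high ones. Leaving out wild-type replicate 1 gave -0.17 for Mir532. Mir501 stood at -4.26 ± 0.38 in the knockout and -4.04 ± 0.40 in wild type, a difference of -0.22 ± 0.24 (adjusted p = 0.975 by limma) that became -0.052 when knockout replicate 2 was left out and -0.39 when wild-type replicate 4 was.

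The seed of miR-362-3p is also that of miR-329-3p, from the imprinted cluster on chromosome 12, and of no other miRNA among those matched. miR-329-3p was at 2895, 2873, 2838 and 2506 in the knockout libraries, against 2313, 2889, 2618 and 2688 in the wild-type libraries, on average 17.6-fold above miR-362-3p. Its log2 fold change was 0.083 ± 0.11, and it did not pass. The seed of miR-188-5p is shared with miR-7061-3p, which averaged 0 in the knockout and 0.505 ± 0.603 in wild type, below the level tested.

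Members of the cluster were not shown to vary together across libraries. Over the 28 pairs of members, Pearson's r of log2 levels over the 8 libraries had a median of 0.030 (median Spearman's rho 0.024), from -0.60 for miR-362-3p with miR-501-3p to 0.74 for miR-362-5p with miR-501-5p. It was above 0 in 14 of the 28 pairs, against 50.2% of all 179700 pairs of tested miRNAs, whose median was 0.0021. No pair passed after adjustment over the 28 (smallest adjusted permutation p 0.693 for Pearson and 0.808 for Spearman), and 1 pair had an unadjusted exact permutation p under 0.05. That pair was miR-362-5p with miR-501-5p (r = 0.74, exact p = 0.0260, adjusted 0.693; rho = 0.69, exact p = 0.0694, adjusted 0.808), whose r without the 2 libraries farthest from the median was -0.092. For the 2 arms of a hairpin, r was 0.31 for miR-362, 0.18 for miR-501 and -0.0092 for miR-532 (exact permutation p of 0.442, 0.645 and 0.981, adjusted 0.693, 0.752 and 0.981, with rho of 0.31, 0.095 and 0.17). Without the 2 farthest libraries these r were 0.25, -0.47 and -0.17. The values share a library's scaling, and the median r of the 28 pairs was 0.43 in the values as deposited and 0.28 after scaling to library totals. No median over all tested pairs was taken for these scalings, so whether the members stand out there was not tested. Low values, above all those of miR-188-5p, also enter these r, and their part was not tested.

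**Figure D5:**
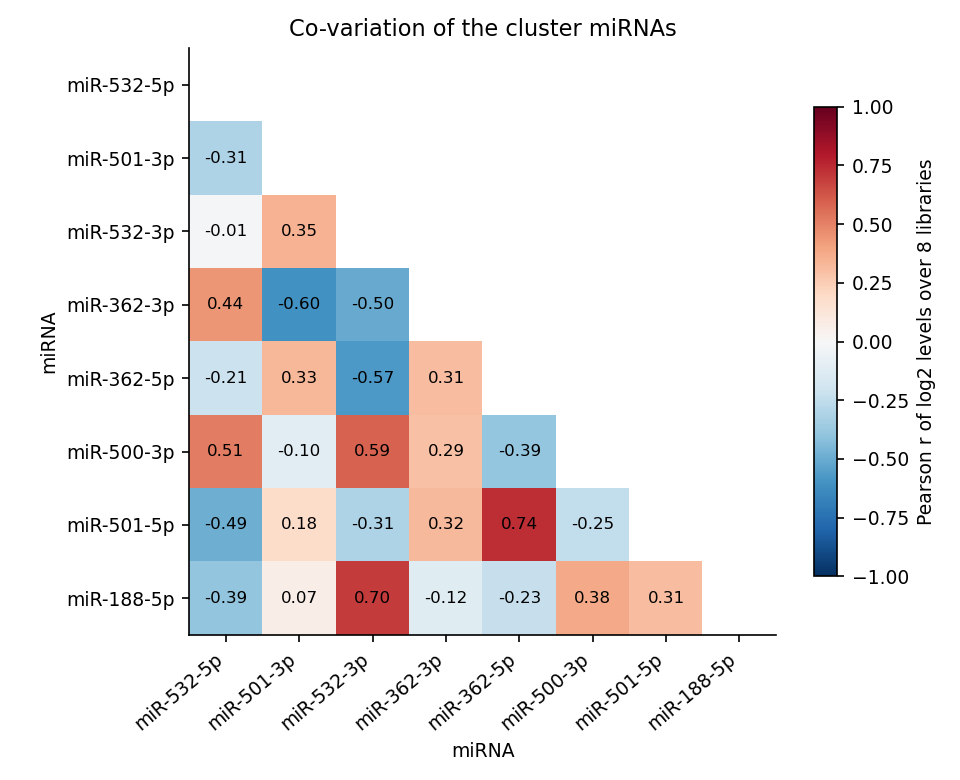
Pearson's r of log2 rescaled levels over the 8 libraries for each of the 28 pairs of cluster miRNAs, printed in each cell and coloured from -1 (blue) to 1 (red). Positive and negative cells are mixed, and the highest is 0.74 for miR-362-5p with miR-501-5p.

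Among 591 tested miRNAs outside the locus, those whose levels were most like the mean log2 level of the 8 members were miR-194-5p (r = 0.92, rho = 0.81), miR-15a-5p (r = 0.92, rho = 0.69) and miR-135b-5p (r = 0.90, rho = 0.86) over the 8 libraries. None passed over the 591 compared (exact permutation p of 0.00265, 0.00469 and 0.00384, adjusted 0.444 each; for rho 0.0218, 0.0694 and 0.0107, adjusted 0.715, 0.919 and 0.633). Without the 2 libraries farthest from the median of the cluster mean, the r were 0.61, 0.60 and 0.90.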

How the data were processed

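Per the file headers, each deposited file holds a normalized count for every mature miRNA name. No source used here states how the authors normalized, and all deposited values are whole numbers, so the deposited values were treated as a score with no fixed unit and no count model was run. The submitters' processing notes name cutadapt 1.11, Bowtie 1.1.2, HTSeq 0.6.1p1, edgeR and build mm10 among the authors' tools, with no order or settings. Per the labels' protocols, RNA was column-purified and enriched for small RNA, and libraries were size-selected on a gel.

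Values were rescaled to the median library by an unweighted trimmed mean of log ratios (30% of ratios and 5% of levels trimmed at each end, factors 0.836 to 1.21). A miRNA was tested if its rescaled value reached 10 in at least 4 libraries, which 600 did. limma 3.58.1 in R 4.3.3 was fitted to log2(value + 1) of all 600, with variances moderated along the trend with level and p-values adjusted by Benjamini-Hochberg at 0.05, so fold changes understate the change of low miRNAs. Arm ratios with 0.5 added to each arm were fitted over 141 hairpins whose arms each averaged 20 or more. Arms of a hairpin and neighbouring members were compared within libraries by exact sign-flip permutation. Correlations were tested by exact permutation of the libraries. The procedure was also run on simulated data, whose outcome is not given here, so no power is stated from it. Members, lists and the rule for naming miRNAs (members, partner arms, other miRNAs of the locus or of a member's seed, and the 3 most alike in level) were chosen with earlier results of these data known. Of 1915 names, 1623 were matched to RefSeq sequences (GRCm38.p6). Alternatives covered scaling, pseudocount, filter, trend, a replicate block and each library left out.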

Additional observations from a re-analysis of the deposited data

Results flagged for a closer look

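miR-362-5p in the wild-type libraries was marked because a single library lay far from the other 3. Its rescaled value was 77.2 in wild-type replicate 4, against 165 to 176 in the other wild-type libraries. That gap was 0.888 of the group's whole range, above Dixon's 95% critical value for 4 libraries. In all, 26 groups of 4 libraries were examined, 1 was marked, and chance marks about 1 in 20, or 1.3 of 26.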

How the results depend on the processing

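The count of members past the threshold stayed 0 in every scaling, pseudocount, filter, trend, block and leave-one-out alternative, and of 139 alternative values of member levels 0 passed (adjusted p from 0.172 to 0.9997). miR-188-5p fell below the minimum, leaving 7 members, under upper quartile scaling, the stricter filter, the block, the same 6 libraries unblocked, and without knockout replicate 5. No label ties replicate numbers across genotypes, so pairing was checked in the values. Deviations from the group means correlated by 0.0859, -0.0469 and 0.122 between libraries of equal number (replicates 1, 2 and 4). Knockout replicate 4 was most like the wild-type library of its own number, and knockout replicates 1 and 2 were not. So few correlations cannot decide whether equal numbers mark pairs. A replicate block on numbers 1, 2 and 4 gave 1 cluster hairpin with a changed arm ratio in place of 0 (Mir362, 0.91, adjusted p = 0.0314 by limma), against 0.91 and adjusted p = 0.308 in the same 6 libraries unblocked and a lowest adjusted p of 0.218 in the other alternatives. Those numbers leave out knockout replicate 5 and wild-type replicate 3. At Mir362 these were the only libraries with a log2 arm ratio of opposite sign to the rest of their group (-0.14 and 0.46). The block gave 4 miRNAs and 2 hairpins past the threshold in place of 0 and 0. The count of members with an unadjusted p under 0.05 became 1 with the block, in the same 6 libraries unblocked, and on leaving out knockout replicate 5 or wild-type replicate 3. The same count over all miRNAs, 26, became 9 as deposited, 51 unfiltered (1330 tested), 45 with the block and 40 in the 6 libraries. The 4 hairpins with a favoured arm, Mir188 with its partner near 0 among them, became 0 in knockout libraries alone and 0 in wild-type libraries alone, where 4 libraries allow no exact p below 0.125, and 4 with any library left out. Mir362's log2 arm ratio turned to 0.23 in knockout libraries alone and ran from -0.13 to 0.084 with 1 library left out. The log2 difference of miR-362-3p over miR-362-5p ran from -0.084 to 0.12, and 3 to 5 neighbouring pairs passed in place of 4. Small genotype differences changed sign: miR-500-3p was at 0.052 by upper quartile scaling and 0.013 by library totals, and miR-501-5p at 0.022 in the 6 libraries with or without the block. With 1 library left out, miR-532-5p ran from -0.29 to -0.071, miR-532-3p from 0.0068 to 0.33, miR-188-5p from -0.25 to 0.28, miR-362-5p from -0.20 to 0.20, miR-500-3p from -0.23 to 0.24 and miR-501-5p from -0.29 to 0.092. The knockout minus wild-type difference in the cluster's share, -9.61 per 1000000, ran from -19.4 to 4.15. Pairs of members past the threshold became 1 without wild-type replicate 4 and 0 otherwise, and the median r ran from -0.16 to 0.11. The adjustment of arm tests over all 141 hairpins was chosen after seeing the data. The causes were not tested.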
